A study of Glycine max with 4 samples.

Results

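The genes described here are the homeobox transcription factor genes of soybean leaves: the homeodomain-leucine zipper (HD-ZIP) families, the KNOTTED1-like (KNOX) and BEL1-like (BEL) families, and the WUSCHEL-related (WOX) and zinc finger homeodomain (ZF-HD) families. They were chosen by the words homeobox, KNOTTED, BEL1 or homeodomain GLABROUS in the gene description of the deposited table, without the large Homeodomain-like superfamily, and loci merged from several genes were left out. The rule found 172 genes among 39505 loci. Of these, 130 had a mean of at least 0.3 FPKM (read fragments scaled to transcript length and to library size) over the 4 libraries and were tested, among 32686 tested loci, and 42 were below that level and were not tested. The rule used no expression value.

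Leaf RNA was compared after 24 h in 2 nutrient solutions, to learn how a short loss of inorganic phosphate (Pi) changes leaf transcripts. Pi-deprived leaves (PDL-1 and PDL-2) came from plants moved to 0 mM KH2PO4, and Pi-sufficient leaves (PSL-1 and PSL-2) from plants moved to 0.5 mM KH2PO4. All plants were the cultivar Williams 82, grown in nutrient solution, and the first trifoliate true leaves were harvested from seedlings labelled as 18 days after germination. K2SO4 stood in for KH2PO4 in the deprived solution, so the groups also differed in sulfate. According to the methods of the study, each library pooled leaves of 3 plants, so each group has 2 biological replicates and p-values measure only the spread between these libraries. Whole leaves were used, in which fewer cells of a type and less RNA per cell cannot be told apart.

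Homeobox proteins bind DNA through the homeodomain and set cell identity and organ shape in plants. In Arabidopsis, HD-ZIP I and II proteins adjust growth to water supply, abscisic acid and shade, HD-ZIP III proteins pattern vessels and the upper leaf side, and HD-ZIP IV proteins specify the epidermis. Class I KNOX proteins keep meristem cells undifferentiated and are normally silent in the simple leaf of Arabidopsis, class II KNOX proteins act in maturing organs, and BEL proteins pair with KNOX proteins, which carries the pair into the nucleus.

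Between PDL and PSL, 1 of the 130 tested homeobox genes passed both of the study's thresholds. These are a log2 fold change of 1 or more in size and an unadjusted p (here from limma) of 0.05 or less. Some genes of low level were past the fold threshold but missed the p limit, and the log2 fold changes ran from −2.34 to 2.63. With both thresholds no homeobox gene was higher in PDL, against 1.14% of all tested loci. One homeobox gene, the HD-ZIP I gene Gm01g041700, was lower, against 0.887% of all tested loci, and the share in either direction over all loci was 2.03%. With that p limit alone and no fold threshold stood 7 homeobox genes (5.38%), 6 with a fold change below 0 and 1 above, against 8.93% of all tested loci. No homeobox gene had an adjusted p under 0.05, which 0.0581% of all tested loci had, and 2 libraries against 2 cannot go below p = 0.333 in an exact permutation test. The median log2 fold change of the 130 genes was −0.04 (−0.09 without PDL-2), beside −0.01 over all tested loci, and 72 of them (55.4%) had a log2 fold change below 0, beside 51.4% of all tested loci.

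**Figure D1:**
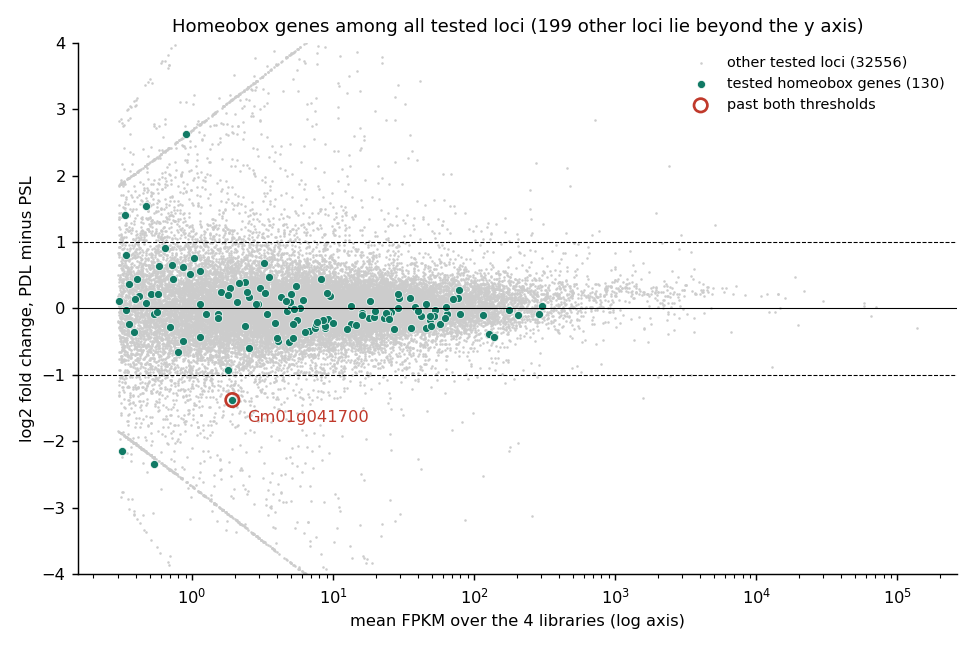
Log2 fold change of PDL against PSL on the log2(FPKM + 0.1) scale (y axis) by the mean FPKM of the 4 libraries (x axis, logarithmic) for 130 tested homeobox genes (green) and the other tested loci (grey), with dashed lines at the fold threshold. Only Gm01g041700, ringed in red, passes both thresholds, and the genes above 10 FPKM stay between −0.43 and 0.28.

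The interval of a change shows how closely these 4 libraries limit it. For 82 of the 130 genes (63.1%) the whole 95% limma interval lay between −1 and 1 on the log2 scale, a share near the 60.8% of all tested loci. All 46 homeobox genes with a mean of at least 10 FPKM were limited in this way, against 85.1% of the 12600 loci at that level, and for 26 of the 46 the interval lay between −0.5 and 0.5. For none of the 28 tested homeobox genes under 1 FPKM did the interval lie between −1 and 1, against 0.938% of all tested loci at that level. These libraries thus do not limit the changes of these 28 genes to that range. Fold changes on this scale also understate the change of genes with low values.

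Among the 46 more abundant genes, 34 (73.9%) had a fitted log2 fold change below 0, with a median of −0.09 and a range from −0.43 to 0.28. At the same level 49.7% of all loci lay below 0, and their median was 0.00. The 34 became 36 after quantile normalization, 33 after median centring, and 29 without PDL-1, the lowest count with 1 library left out. The median became −0.04 without PSL-2, where 30 lay below 0. In 25 of the 46 (54.3%) the 2 PDL values and the 2 PSL values did not overlap, against 46.2% of all loci at that level. PDL lay below PSL in 20 of the 46 and above in 5. Of the 12600 loci at that level, PDL lay below PSL in 2813 and above in 3006. Over all 130 tested genes the groups did not overlap in 59 (45.4%), against 41.3% of all tested loci. Here and below, the value of replicate 1 stands before that of replicate 2. The FPKM of the homeobox genes summed to 2973 and 3062 in PDL against 3140 and 3247 in PSL. Both PDL sums lay below both PSL sums. As a share of all FPKM the groups overlapped, at 0.153 and 0.167% in PDL against 0.189 and 0.162% in PSL. Light-harvesting and Rubisco small subunit genes of the mesophyll had both PDL values above both PSL values in 34 of 37 tested (91.9%), with 0 called and a median log2 fold change of 0.29, and their part in the homeobox values was not tested.

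**Figure D2:**
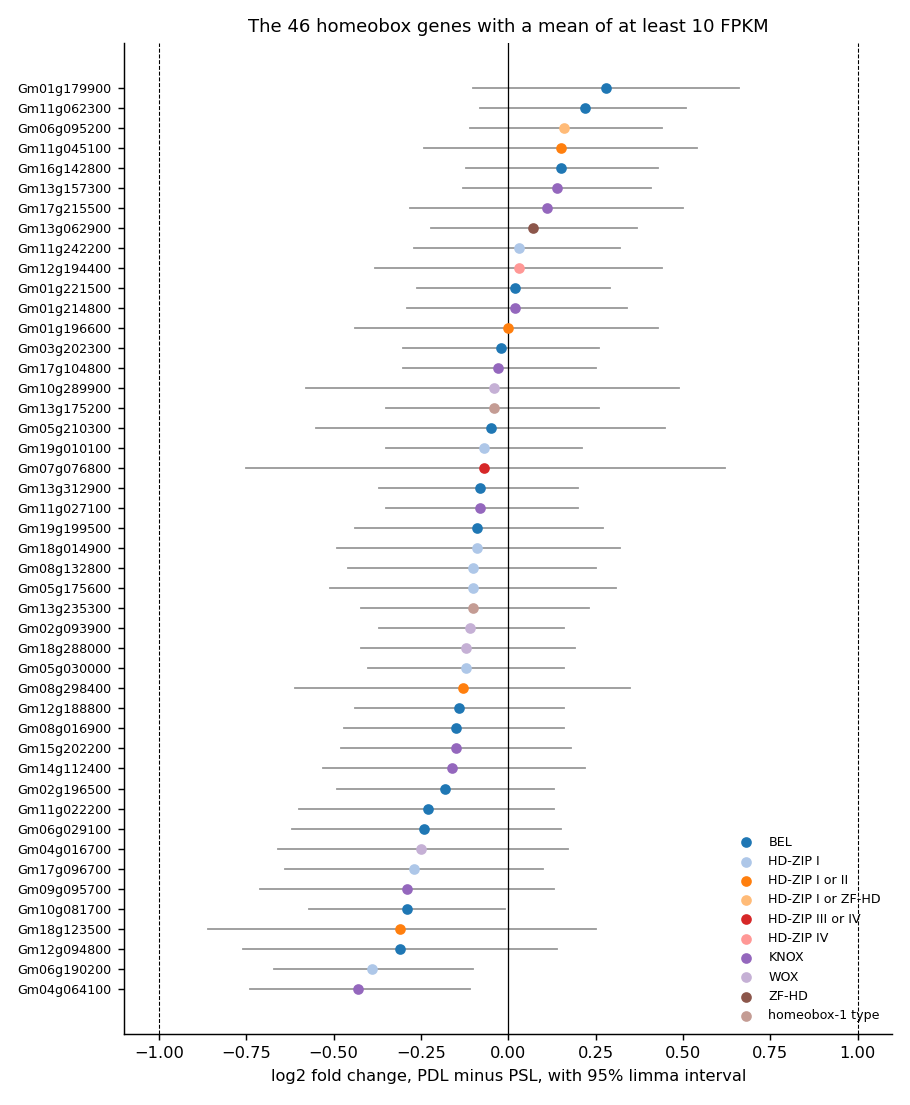
Log2 fold change of PDL against PSL on the log2(FPKM + 0.1) scale (x axis) with its 95% limma interval (line) for each of the 46 homeobox genes with a mean of at least 10 FPKM, coloured by family. All 46 intervals lie between the dashed lines at −1 and 1, and 34 of the 46 points lie below 0.

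Levels differed far more between homeobox genes than between the groups. On the FPKM scale, which allows for transcript length, mean levels ran from 0.0213 to 303 FPKM, with a median of 2.41 FPKM. In each library the 5 most abundant genes held 35.3 to 36.5% of the homeobox FPKM and the 10 most abundant 50.5 to 51.6%. HD-ZIP I genes held 37.5 to 39.4%, KNOX genes 20.4 to 22.0% and BEL genes 19.3 to 20.1%. The 172 genes lay on all 20 chromosomes of the Gmax2.0 genome, with 4 to 14 genes each. A DNA binding term was annotated for 151 of the genes and a lipid binding term for 33, all of these in the START domain families HD-ZIP III and IV, while 20 genes had no term.

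Gm01g041700 (chromosome 1, 4530671 to 4532306) carries the description homeobox 1, that of the Arabidopsis HD-ZIP I factor ATHB1, which acts in hypocotyl growth and leaf development. Its level was 1.17 and 0.869 FPKM in PDL against 3.28 and 2.39 FPKM in PSL. Both PDL values lay below both PSL values. The log2 fold change was −1.38 (SE 0.29, adjusted p = 0.476). Without PDL-2 the log2 fold change was −1.19 and without PSL-1 it was −1.16, and in both cases the gene missed the p limit (adjusted p = 0.777 and 0.618). With a pseudocount of 1 in place of 0.1 the log2 fold change was −0.92, under the fold threshold.

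The description homeobox 1 is shared by 9 genes, which run from 0.0865 to 127 FPKM in mean level. Of the 8 tested, 7 had a log2 fold change below 0, with a median of −0.30, and in 5 both PDL values lay below both PSL values, where 21.1% of all tested loci did so. The median became −0.16 without PDL-2 and −0.12 without PSL-1, with 6 of the 8 below 0 in each case. Gm06g190200 (chromosome 6, 16704157 to 16706497), the most abundant of the 9, had 113 and 107 FPKM in PDL against 138 and 149.9 in PSL. Its groups did not overlap, with a log2 fold change of −0.39 (SE 0.11, adjusted p = 0.522), past the p limit but under the fold threshold. It was chosen after its values were seen.

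Gm17g096700 had 46.4 and 42.7 FPKM in PDL against 58.7 and 49.2 in PSL, and Gm05g030000 had 50.6 and 49.5 against 56.4 and 52.4. Their log2 fold changes were −0.27 (SE 0.14) and −0.12 (SE 0.10), with 95% intervals that include 0. Gm02g022300 behaved otherwise, with 0.669 and 0.874 FPKM in PDL, 2.56 in PSL-1 and 0.412 in PSL-2. Here 1 PSL library was the highest and the other the lowest of the 4. Gm18g126800 was listed at 0 in 3 libraries and at 0.346 FPKM in PSL-1. The 4 genes of this paragraph were named after seeing their values, and reads of close copies of a gene can be split between them, which the processing does not resolve.

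**Figure D3:**
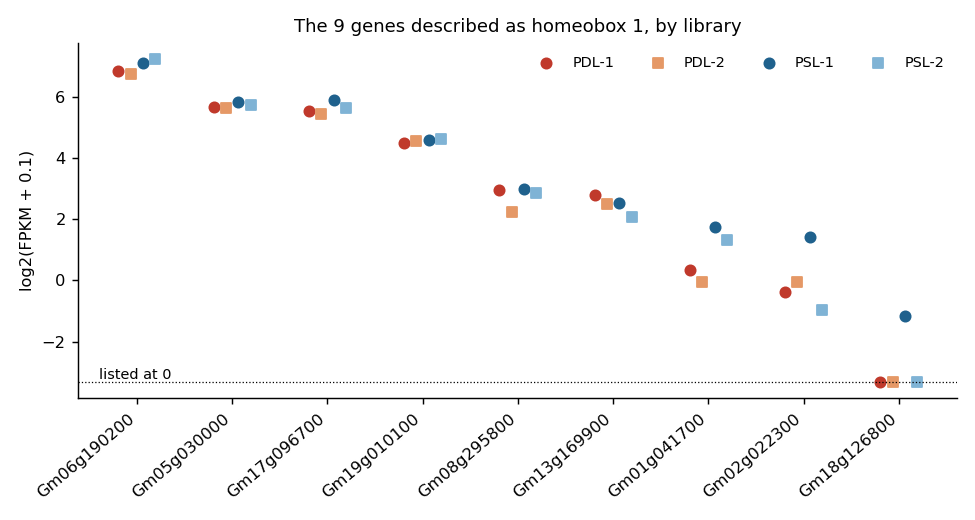
Level of each of the 9 genes described as homeobox 1 in each library, as log2(FPKM + 0.1), ordered by mean level. PDL is red and orange, PSL dark and light blue, and the dotted line marks genes listed at 0. Gm01g041700 is 0.869 to 1.17 FPKM in PDL and 2.39 to 3.28 FPKM in PSL, and the more abundant genes of the group differ less between libraries.

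The most abundant homeobox transcripts were HD-ZIP I genes of other types. Gm11g242200, described as homeobox protein 6, had 309 and 303 FPKM in PDL against 314 and 287 in PSL, above 98.5% of all loci in mean level. Gm18g014900, of the same description, had 252 and 307 FPKM in PDL against 314 and 279 in PSL. ATHB6 of Arabidopsis is a regulator of abscisic acid responses. In both genes the groups overlapped, and the log2 fold changes were 0.03 (95% interval −0.27 to 0.32) and −0.09 (−0.49 to 0.32). Gm05g175600, described as homeobox protein 16, the Arabidopsis regulator of leaf expansion and light responses, had 194 and 199.7 FPKM in PDL beside 188 and 238 in PSL. PSL-1 was the lowest and PSL-2 the highest of its 4 values, and the 95% interval of its log2 fold change was −0.51 to 0.31.

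The less abundant HD-ZIP I genes varied more between replicates. The 3 genes described as homeobox 7, whose Arabidopsis namesake is induced by water deficit and abscisic acid, had means of 0.586 to 4.29 FPKM, and their groups overlapped. Gm19g021100, described as homeobox 3, was listed at 0 in PDL-1 and at 0.266 FPKM in PDL-2, against 1.35 and 0.545 FPKM in PSL. Its groups did not overlap, but with a log2 fold change of −2.34 and an SE of 0.97 it missed the p limit (adjusted p = 0.583). The value became −1.40 without PDL-1 and −3.28 without PDL-2, where it was called lower, as it was with no filter. The other 2 homeobox 3 genes were above 0 only in PSL-1, at 0.273 and 0.0913 FPKM, too low to be tested. Of all 16 tested HD-ZIP I genes, 11 had a log2 fold change below 0, with a median of −0.10 (−0.17 without PSL-2). The groups did not overlap in 6, all with PDL below PSL, where 21.1% of all tested loci had PDL below PSL and 20.2% above.

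A further 9 genes are described only as members of the homeobox-leucine zipper family and can be HD-ZIP I or II. None of the 8 tested was called, and 7 had a log2 fold change below 0. Gm18g123500 had 20.1 FPKM in PDL-1, 28.8 in PDL-2 and 29.8 in each PSL library. PDL-2 lay just under both PSL values and PDL-1 well under them, and the log2 fold change was −0.31 (SE 0.20, adjusted p = 0.702). Gm02g019100 had 3.36 and 3.41 FPKM in PDL against 5.40 and 4.23 in PSL, giving a log2 fold change of −0.49 (SE 0.19, adjusted p = 0.568). The most abundant, Gm11g045100 and Gm01g196600, had means of 35.3 and 29 FPKM with log2 fold changes of 0.15 and 0.00, and their groups overlapped.

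HD-ZIP II genes, which in Arabidopsis act in shade avoidance and leaf polarity, were low in these leaves: no gene of the 20 reached 10 FPKM, and 11 were under 1 FPKM. None of the 15 tested was called, but 3 (20%) met the p limit below the fold threshold, where 8.93% of all tested loci met the p limit. Gm17g056300, described as homeobox from Arabidopsis thaliana like 10 other genes, had 3.76 and 4.21 FPKM in PDL against 6.05 and 5.31 in PSL. Gm13g102800, of the same description, had 0.895 and 1.58 FPKM in PDL against 2.42 and 2.29 in PSL. Both genes had both PDL values below both PSL values, with log2 fold changes of −0.50 (SE 0.16, adjusted p = 0.542) and −0.92 (SE 0.34, adjusted p = 0.560). Gm07g112400, described as homeobox-leucine zipper protein 3, which in Arabidopsis (HAT3) specifies the upper leaf side, lay the other way, at 3.84 and 4.44 FPKM in PDL against 3.10 and 2.78 in PSL. Its log2 fold change was 0.48 (SE 0.17, adjusted p = 0.559), and it was chosen after its values were seen.

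The most abundant HD-ZIP II genes stayed below the fold threshold. Gm15g269100 had 7.77 and 8.23 FPKM in PDL beside 9.02 and 9.13 in PSL, giving a log2 fold change of −0.18 (SE 0.12, adjusted p = 0.704). Gm17g144700, described as homeobox protein 2, the shade-induced ATHB2 of Arabidopsis, had 7.70 and 6.21 FPKM in PDL beside 8.58 and 7.79 in PSL, giving a log2 fold change of −0.24 (SE 0.17, adjusted p = 0.711). In neither did the groups overlap, and both intervals include 0. Gm19g149000 had 0.124 FPKM in PDL-1, was listed at 0 in PDL-2, and had 0.657 and 0.485 FPKM in PSL, with a log2 fold change of −2.15 (SE 0.90, adjusted p = 0.585). It was called lower without PDL-1 (−2.73), without PDL-2 (−1.57), with no filter and with no trend of the spread by level.

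PSL-1 stood apart in this family. It was the highest of the 4 libraries in 8 of the 15 tested HD-ZIP II genes (53.3%) and in 9 of 16 HD-ZIP I genes (56.2%), against 23.8% of all tested loci. The summed HD-ZIP II level was 36.1 and 37.0 FPKM in PDL against 51 in PSL-1 and 39.2 in PSL-2, so that the other Pi-sufficient library lay near the deprived ones. Gm05g062700, the other homeobox protein 2 gene, had 2.01 and 1.5 FPKM in PDL, 5.36 in PSL-1 and 1.32 in PSL-2. Gm11g035900, described as HB-4, which acts with HAT3 in Arabidopsis, had 2.93 and 3.62 FPKM in PDL, 6.57 in PSL-1 and 3.0 in PSL-2. In both, 1 PSL library exceeded all others and PSL-2 lay at or near the PDL level.

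For the second HB-4 gene, Gm01g207300, with 0.958 and 1.07 FPKM in PDL, 2.56 in PSL-1 and 0.433 in PSL-2, leaving out 1 library set the direction. Without PSL-1 its log2 fold change was 1.07 (adjusted p = 0.618), and without PSL-2 it was −1.26 (adjusted p = 0.662). Gm07g218000, described as homeobox-leucine zipper protein 17, was listed at 0 in PSL-1 and had 1.34 FPKM in PSL-2, with 0.586 and 0.640 FPKM in PDL, and it turned from −1.01 without PSL-1 to 2.83 without PSL-2. These 4 genes were named after seeing their values. In PSL the replicates of 16 tested homeobox genes (12.3%) lay more than 1 apart on the log2 scale, against 10.1% of all tested loci, and in PDL those of 7 (5.38%), against 9.37%. None of the 46 genes above 10 FPKM was among them.

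**Figure D4:**
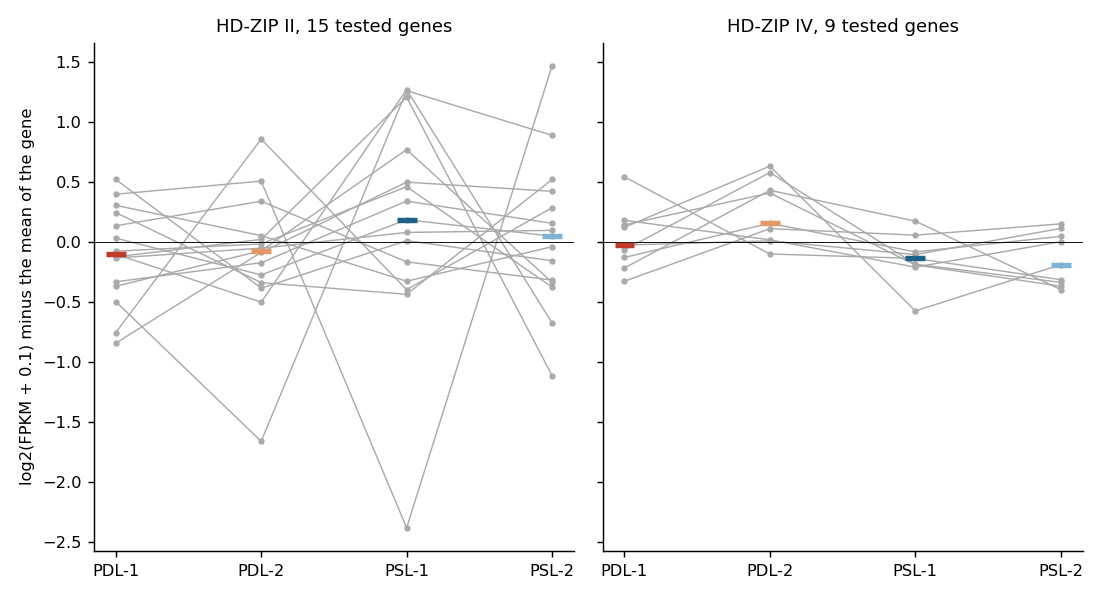
Level of each tested HD-ZIP II gene (left, 15 genes) and HD-ZIP IV gene (right, 9 genes) in each library, as log2(FPKM + 0.1) minus the mean of that gene over the 4 libraries. Grey lines join the values of 1 gene and the thick bars are medians over genes. In HD-ZIP II, PSL-1 is the highest library for 8 of 15 genes, and in HD-ZIP IV, PDL-2 is the highest for 5 of 9.

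HD-ZIP III proteins promote vessel formation and the upper leaf side in Arabidopsis and carry a START domain, a lipid-binding fold. The 2 genes described as homeobox gene 8, the procambium factor ATHB8, had similar levels: Gm04g085000 had 2.01 and 1.5 FPKM in PDL beside 1.44 and 1.46 in PSL, and Gm06g086600 had 1.39 and 1.5 in PDL beside 1.56 and 1.65 in PSL. Their groups did not overlap but lay in opposite directions, with log2 fold changes of 0.25 (SE 0.26) and −0.14 (SE 0.23). Another 18 genes are described only as START domain leucine zipper proteins and can be HD-ZIP III or IV. Of these, 16 were tested, none met the p limit, and their log2 fold changes ran from −0.26 to 0.31 with a median of 0.09.

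The most abundant of these START genes was Gm07g076800, with 13.1 and 18.1 FPKM in PDL against 19.0 and 13.7 in PSL. Gm18g225800 and Gm09g265200 were highest in PDL-2, at 11.9 and 11.1 FPKM, with 7.86 to 9.06 FPKM in the other libraries. In these 3 genes the groups overlapped and the spread within PDL was wider than the distance between the group means. Gm09g023600 had 2.45 and 1.72 FPKM in PDL against 1.71 and 1.57 in PSL, giving a log2 fold change of 0.31 (SE 0.27), while Gm07g016700 had 2.24 and 2.08 against 2.70 and 2.52, a log2 fold change of −0.26 (SE 0.18). Both intervals include 0. Gm07g016700 lies 4897 bases from Gm07g016500, another START gene with a mean of 5.2 FPKM, and Gm08g201900 and Gm08g202000 form a second such pair, 4413 bases apart, with means of 2.95 and 2.84 FPKM.

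HD-ZIP IV proteins are known in Arabidopsis for epidermis, trichome and stomatal cell fate. The 14 genes of this class held 1.08 to 1.29% of the homeobox FPKM. None of the 9 tested was called. The log2 fold change was above 0 in 7 of the 9, with a median of 0.22 (0.50 without PSL-1), and in 5 both PDL values lay above both PSL values, with 0 the other way, where 20.2% of all tested loci had PDL above PSL. Without PDL-2 the log2 fold change was below 0 in 4 of the 9, and without PDL-1 in none. Gm13g357100 had 1.08 and 1.58 FPKM in PDL against 0.628 and 0.851 in PSL, and Gm09g207500, described as homeobox-7, had 1.24 and 1.51 against 0.963 and 0.840. Their log2 fold changes were 0.76 (SE 0.37, adjusted p = 0.625) and 0.56 (SE 0.29, adjusted p = 0.648), and both 95% intervals include 0.

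The 2 most abundant HD-ZIP IV genes carry the description homeodomain GLABROUS 2. Gm12g194400 had 12.3 and 15.0 FPKM in PDL beside 12.7 and 13.9 in PSL, and Gm13g308200 had 7.87 and 10.7 in PDL beside 10.3 and 11 in PSL. Both overlapped between groups, with log2 fold changes of 0.03 (SE 0.15) and −0.22 (SE 0.19). The third, Gm07g019500, had 5.14 and 5.27 FPKM in PDL beside 4.86 and 5.67 in PSL. The 3 homeodomain GLABROUS 11 genes, named for an Arabidopsis regulator of trichome branching, had means of 0.0777 to 0.276 FPKM and were not tested.

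Lists for the epidermis and for stomata are given beside these genes, since HD-ZIP IV genes act there. The epidermis list, of protodermal factor and cuticle genes, summed to 592 and 1024 FPKM in PDL against 684 and 595 in PSL, with 0 of 22 tested genes called. All 4 protodermal factor genes carry the lipid binding term and 3 the DNA binding term, as most HD-ZIP III and IV genes do. They can thus be genes of those families that the word rule did not match, and are not a separate marker set. PDL-2 was the highest library of the epidermis sum. The most abundant gene of the list had a mean of 322 FPKM and the median gene 3.09 FPKM, so the sum does not stand for the list. Of the 22 tested genes, PDL lay above PSL without overlap in 3 and below in 6, where 20.2 and 21.1% of all tested loci did so. The guard cell patterns matched only 2 genes, both of which encode stomagen, a peptide that promotes stomata. Stomagen is a signal and not a marker of guard cells, so no guard cell marker was read. Both genes were higher in PDL. Gm08g345100 had 8.23 and 9.55 FPKM in PDL against 4.41 and 3.59 in PSL (log2 fold change 1.14, SE 0.18, adjusted p = 0.470, and 0.99 without PSL-2). Gm18g152800 had 1.32 and 3.45 FPKM in PDL and was listed at 0 in each PSL library. The mesophyll list, of light-harvesting and Rubisco small subunit genes, summed to 152983 and 155309 FPKM in PDL beside 120219 and 130729 in PSL, with 0 of 37 called, 5 past the p limit and all 5 of these above 0. The phloem list had 1 lower gene of 28 tested, Gm19g231000, whose call ended without PDL-2, PSL-1 or PSL-2 (log2 fold change −1.66 with all libraries and −1.23, −1.42 and −1.89 without them), and the xylem, dividing cell and root lists had no call. The part of these differences in the homeobox values was not tested.

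KNOX genes split by type more sharply than by treatment. The 7 genes described as KNOTTED1-like homeobox gene 3, a class II type (KNAT3 in Arabidopsis), all had means of 18.4 to 177 FPKM. The 8 genes described as KNOTTED1-like homeobox gene 6, a class I type that in Arabidopsis (KNAT6) marks meristem and organ boundaries, had means of 0.0232 to 1.13 FPKM, and 6 of them were not tested. Of the 4 genes described as KNOTTED-like 7, the class II factor KNAT7 of secondary walls, Gm11g027100 and Gm01g214800 had means of 64.3 and 63.1 FPKM, while Gm05g050600 and Gm17g132600 had 0.121 and 0.0235 FPKM. The lowest KNAT3 type gene thus lay above the highest KNAT6 type gene in mean level.

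None of the 11 tested KNOX genes was called. Gm04g064100 (chromosome 4, 5338065 to 5341872) came nearest, with 124 and 111 FPKM in PDL against 152 and 164 in PSL. The groups did not overlap, and the log2 fold change was −0.43 (SE 0.11, adjusted p = 0.522), the largest distance from 0 among the 46 genes above 10 FPKM. Gm17g104800, the most abundant KNOX gene, had 169 and 182 FPKM in PDL beside 177 and 181 in PSL, and its 95% interval was −0.30 to 0.25. Gm13g157300 lay the other way from Gm04g064100, with 74.0 and 74.3 FPKM in PDL against 65 and 69.5 in PSL, giving a log2 fold change of 0.14 (SE 0.10, adjusted p = 0.711). Of the 7 KNAT3 type genes, 5 had a log2 fold change below 0, with a median of −0.15 that became −0.26 without PSL-1 and −0.02 without PSL-2. The groups did not overlap in 4 with PDL below and 1 with PDL above PSL, where 21.1% of all tested loci had PDL below and 20.2% above.

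PSL-2 was the highest library for 8 of the 11 tested KNOX genes (72.7%) and for 13 of 26 BEL genes (50%), against 28% of all tested loci. For example, Gm09g095700 had 33.9 and 30.4 FPKM in PDL, 35.2 in PSL-1 and 43.7 in PSL-2, where the distance between the PSL replicates exceeded that between PSL-1 and PDL-1. Summed over the family, KNOX genes had 634 and 626 FPKM in PDL, 654 in PSL-1 and 714 in PSL-2. Gm10g147000, of the KNAT6 type, had 0.905 and 0.902 FPKM in PDL against 0.428 and 0.664 in PSL, giving a log2 fold change of 0.66 (SE 0.41, adjusted p = 0.687). Gm09g095700 was chosen after its values were seen.

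**Figure D5:**
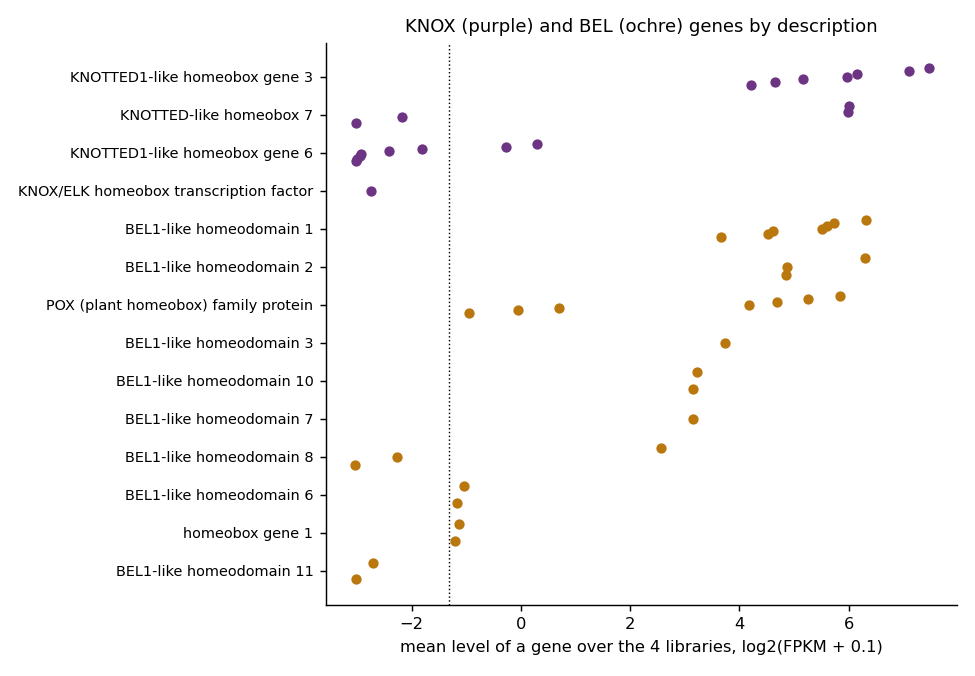
Mean level over the 4 libraries, as log2(FPKM + 0.1) (x axis), of each KNOX gene (purple) and BEL gene (ochre), 1 point a gene, by gene description (y axis). The dotted line is the level of 0.3 FPKM below which genes were not tested. KNAT3 type genes lie at 18.4 to 177 FPKM and KNAT6 type genes at 0.0232 to 1.13 FPKM.

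BEL genes, the partners of KNOX, were the largest class, with 30 genes, of which 15 had means of at least 10 FPKM. None of the 26 tested was called, 19 had a log2 fold change below 0, beside 51.4% of all tested loci, and the median was −0.11. Without PSL-2 the count was 15 and the median −0.07, and without PSL-1 they were 19 and −0.19. All 7 BEL1-like homeodomain 1 genes had a log2 fold change below 0, from −0.31 to −0.02, and in 4 both PDL values lay below both PSL values. Without PDL-1 or without PSL-1, 6 of the 7 lay below 0. All 3 BEL1-like homeodomain 2 genes, a type that in Arabidopsis (SAW1) limits growth at the leaf margin, had log2 fold changes of 0.15 to 0.28, with both PDL values above both PSL values in each, and all 3 stayed above 0 with any 1 library left out. Under quantile normalization and median centring the 7 and the 3 kept these directions. Of all tested loci, 21.1% had PDL below PSL without overlap and 20.2% above, and the difference between the 2 descriptions was not tested. These 2 descriptions were chosen after their values were seen.

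Gm01g179900, of the BEL1-like homeodomain 2 type, had 80.6 and 91.7 FPKM in PDL against 65.4 and 76.7 in PSL, giving a log2 fold change of 0.28 (SE 0.14, adjusted p = 0.631). Gm10g081700, of the BEL1-like homeodomain 1 type, had 42.8 and 39.6 FPKM in PDL against 50.2 and 50.4 in PSL, giving a log2 fold change of −0.29 (SE 0.10, adjusted p = 0.559). It was chosen after its values were seen. In the first the gap between the nearest PDL and PSL values was smaller than that between the PDL replicates, and in the second it was larger. Gm13g312900, the most abundant BEL gene, had 76.3 and 78.7 FPKM in PDL beside 85.6 and 78.5 in PSL, with overlapping groups and a 95% interval of −0.37 to 0.20. Gm11g022200, described as a POX family protein after the domain BEL proteins carry, had 56.0 and 49.9 FPKM in PDL beside 57.7 and 67.0 in PSL, giving a log2 fold change of −0.23 (SE 0.13, adjusted p = 0.664).

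Some BEL genes lie beside one another at very unequal levels. Gm04g029100, a BEL1-like homeodomain 10 gene with a mean of 8.74 FPKM, lies 2007 bases from Gm04g029200, a BEL1-like homeodomain 11 gene with a mean of 0.0532 FPKM. On chromosome 6, Gm06g029100, of the BEL1-like homeodomain 3 type, with 13.3 FPKM, lies 2303 bases from the other homeodomain 11 gene, Gm06g029200, with 0.0234 FPKM. Both pairs hold 1 gene in the tested range and 1 below it.

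The 2 homeobox gene 1 loci, named for ATH1, a light-regulated BEL protein of the Arabidopsis shoot meristem, were near the lower limit. Gm06g051600 had 0.381 and 0.692 FPKM in PDL against 0.124 and 0.144 in PSL, with a log2 fold change of 1.40 (SE 0.73, adjusted p = 0.644). Its groups did not overlap, but it missed the p limit. It was called higher in 5 alternatives: with no filter, with no trend of the spread by level, without PDL-1 (1.76), without PDL-2 (1.04) and with only loci above 0 in all 4 libraries. The other, Gm04g050800, had 0.291 and 0.321 FPKM in PDL beside 0.578 and 0.236 in PSL, with overlapping groups. Gm03g070900, a POX family gene, had 0.503 and 0.937 FPKM in PDL against 1.03 and 0.990 in PSL, giving a log2 fold change of −0.49 (SE 0.42).

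WOX genes of the WOX13 type, an ancient and widely expressed branch, were the abundant members of their family. Gm02g093900 had 47.5 and 45.7 FPKM in PDL beside 50.5 and 50 in PSL, giving a log2 fold change of −0.11 (SE 0.10). Gm18g288000 and Gm10g289900 had means of 42.1 and 39.7 FPKM, with log2 fold changes of −0.12 (SE 0.11) and −0.04 (SE 0.20). All 3 of the 95% intervals include 0. The WOX4 type, which in Arabidopsis maintains the vascular cambium, had lower levels. Gm04g040900 of this type had 4.73 and 3.34 FPKM in PDL against 2.14 and 2.77 in PSL, giving a log2 fold change of 0.69 (SE 0.26, adjusted p = 0.568), and did not overlap. Another WOX4 gene, Gm06g041800, chosen after its values were seen, lay the other way at 5.40 and 5.64 FPKM against 8.02 and 6.33. Gm20g099400, a WOX13 gene of low level, had 0.507 and 0.410 FPKM in PDL against 0.235 and 0.201 in PSL, with an SE of 0.63 on a log2 fold change of 0.81.

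Of the 12 ZF-HD genes, which pair a zinc finger with the homeodomain, 7 were tested and all overlapped between the groups. Gm13g062900, described as homeobox protein 30, had 45.2 and 49.0 FPKM in PDL beside 43.4 and 46.1 in PSL, with a 95% interval of −0.22 to 0.37. Gm18g259300 had 7.82 and 10.9 FPKM in PDL beside 8.65 and 5.23 in PSL, and Gm11g068800 had 4.61 and 3.99 in PDL beside 4.25 and 8.09 in PSL. PSL-2 was the lowest library of the former and the highest of the latter. PDL-2 was the highest library for 6 of the 7 tested ZF-HD genes, against 25.3% of all tested loci. The median log2 fold change of the 7 was 0.23 with all libraries and −0.10 without PDL-2.

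A further 7 genes are described as homeobox protein 21 or 22, names that stand for both HD-ZIP I and ZF-HD proteins in Arabidopsis. All 7 had no annotated term, like all 12 ZF-HD genes, while all 24 HD-ZIP I genes had the DNA binding term. They resemble the ZF-HD class in this, but 18240 of the 39505 loci had no term, so its absence does not place them. They are kept apart here. PDL lay above PSL without overlap in 4 and below in 1, where 20.2 and 21.1% of all tested loci did so. Gm06g095200, the most abundant, had 80.6 and 80.4 FPKM in PDL against 69.3 and 74.7 in PSL, giving a log2 fold change of 0.16 (SE 0.10, adjusted p = 0.686), without overlap. Gm14g179600 had 1.28 and 1.78 FPKM in PDL, 0.578 in PSL-1 and was listed at 0 in PSL-2. It had the highest log2 fold change of the 130 tested genes, 2.63 (SE 1.05, adjusted p = 0.574), and missed the p limit. Its fold change rests on the PSL-2 value of 0: without PSL-1 it was 4.01 and without PSL-2 1.25. The gene was called higher without PSL-1, and also with a pseudocount of 1, at a log2 fold change of 1.0 (limma adjusted p = 0.534). Gm02g040100 had 0.379 and 0.592 FPKM in PDL beside 0.286 and 0.369 in PSL, giving a log2 fold change of 0.44 (SE 0.58). Gm01g047900 had 6.68 and 6.56 FPKM in PDL beside 6.83 and 9.69 in PSL, and Gm07g271900 had 2.84 and 3.89 in PDL beside 2.45 and 2.90 in PSL.

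The 3 genes described as homeobox-1, which form a class of their own here, were among the least variable. Gm13g175200 had 19.7 and 19.0 FPKM in PDL beside 20.8 and 19.2 in PSL, Gm13g235300 had 16.2 and 14.8 in PDL beside 16.0 and 17.2 in PSL, and Gm07g201200 had 7.14 and 7.16 in PDL beside 7.92 and 8.54 in PSL. Only in Gm07g201200 did the groups not overlap, with a log2 fold change of −0.20 (SE 0.13, adjusted p = 0.689). All 3 intervals lay between −1 and 1.

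The 42 genes that were not tested account for 9 of the 20 KNOX genes, 8 of 24 HD-ZIP I genes and 5 each of the HD-ZIP II, HD-ZIP IV and ZF-HD genes. Of the 172 genes, 134 were above 0 in all 4 libraries and 16 in only 1 library. Both PDL libraries were listed at 0 for 12 genes and both PSL libraries for 6, none of them among the tested genes. The highest value among the genes listed at 0 in both PDL libraries was 0.808 FPKM, in PSL-1, for Gm06g234700, described as homeobox protein 52 and at 0 in the other 3 libraries. It was chosen after its values were seen.

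Genes known to work with homeobox proteins were read in the same way. OVATE family proteins bind KNOX and BEL proteins in Arabidopsis, and 1 of 15 tested was higher in PDL: Gm19g197800 had 3.21 and 2.30 FPKM in PDL against 1.52 and 0.854 in PSL (log2 fold change 1.18, SE 0.37, adjusted p = 0.535). Leaving out PDL-1, PDL-2 or PSL-2 ended that call, at log2 fold changes of 0.95, 1.41 and 0.80. Mini zinc finger proteins bind ZF-HD proteins and block them, and 1 of 4 was higher: Gm17g100000 had 20.3 and 23.6 FPKM in PDL and was listed at 0 in each PSL library (adjusted p = 0.0191). All 4 mini zinc finger genes were listed at 0 in at least 1 library, and their gene models span only 241 to 295 bases. Of the YABBY factors of the lower leaf side 1 of 13 was higher, while 9 of the 13 had a log2 fold change below 0 (median −0.06). The higher one, Gm05g056000, had 5.60 and 6.81 FPKM in PDL against 3.66 and 1.72 in PSL (log2 fold change 1.26, SE 0.40, adjusted p = 0.537). Its call ended without PDL-1, PDL-2 or PSL-2, at 1.40, 1.12 and 0.74. The log2 fold change of Gm17g100000 was 7.67 to 7.89 with any 1 library left out, and with a replicate block its limma adjusted p was 0.160. The study reports that qRT-PCR, on other samples, showed a much smaller rise of this gene than RNA-seq.

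The other lists had no call in either direction. They included the LOB domain and Asymmetric Leaves genes (0 of 23 tested, median log2 fold change −0.38), among which are repressors of class I KNOX genes in Arabidopsis. Of these 23, 5 (21.7%) met the p limit alone, 3 above 0 and 2 below, against 8.93% of all tested loci. Gibberellin oxidases (0 of 12, median 0.20) and isopentenyltransferases (0 of 7, median 0.10), through which KNOX proteins act on gibberellin and cytokinin, had no call either. The same held for the protodermal factors (0 of 2, median −0.53) and the cuticle genes (0 of 20, median 0.17). Both tested protodermal factors had PDL below PSL without overlap, at −0.74 and −0.32, where 21.1% of all tested loci did so. Their mean levels were at most 0.311 FPKM. No description matched the little zipper or KANADI patterns.

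The libraries were alike in the number of loci above 0 (35517 to 36536), in the homeobox genes above 0 (150 to 155) and in the median FPKM of the tested loci (6.07 to 6.10). Light-harvesting and Rubisco genes, the defining transcripts of a leaf, were abundant in each library, as the mesophyll sums show.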

How the data were processed

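Poly(A) RNA of 4 leaf libraries (2 PDL, 2 PSL) was sequenced in paired ends. For the deposited values, the authors used the FASTX-toolkit and FastQC for read filtering, TopHat with Bowtie2 for mapping to Gmax2.0, Cufflinks for assembly and Cuffdiff for the group comparison, with versions not given in the sources used here. The deposited table gives the authors' FPKM per library, which was used, and their FPKM pooled per group, log2 fold change, test statistic, p-value and q-value, which were not. Read counts were not used, so counting error per gene is unknown. At low values (under 0.3 FPKM) the log2 ratio of PDL-1 to PDL-2 fell most often between 0.3 and 0.4 (514 of 2336 loci) and that of PSL-1 to PSL-2 between −0.4 and −0.3 (533 of 2325 loci), so low values move in steps that differ between libraries.

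The 32686 loci whose mean reached 0.3 FPKM were fitted with limma 3.58.1 (R 4.3.3; eBayes with trend, no covariate) on log2 values of FPKM with a pseudocount of 0.1. Calls needed a log2 fold change of 1 or more in size and p of 0.05 or less, and Benjamini-Hochberg adjusted p-values run over all tested loci. The fit was tested on simulated data. Tables and figures used Python 3.11.15 with pandas 2.3.3, matplotlib 3.10.9, numpy 2.4.6 and scipy 1.17.1.

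Genes were put in 12 classes by the words of their 46 descriptions, and 3 merged loci with such words were left out, none of them called. Groups of a single description read for direction (homeobox 1, KNAT3 type, BEL1-like homeodomain 1 and 2) were not planned. They were chosen with their values seen. Genes named by rule are the called gene (the one member that the study names), the 3 most abundant of each class, the 2 largest changes of each class without overlap, and up to 2 called genes of each related list. Other genes named lie outside this rule and were named with their values seen, also where the text does not say so. The related and marker lists are word patterns on the descriptions. Members, lists and tests were chosen with earlier results of these data known. Alternatives were pseudocounts of 1 and 0.01, a filter at 1 FPKM or none, quantile normalization, median centring, no trend, single annotated genes only, a replicate block, 1 library left out in turn and, chosen after seeing the data, only loci above 0 in all 4 libraries. Gene and promoter sequences were not analysed here.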

Additional observations from a re-analysis of the deposited data

How the results depend on the processing

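With 2 libraries a group, each count of calls moved with single libraries. With 1 library left out, 1 to 3 homeobox genes were higher and 1 to 4 lower in PDL, and over all tested loci 555 to 839 were higher and 511 to 722 lower, where all 4 libraries gave 0 and 1, and 373 and 290. The lone library of a group was then assumed to vary like the other group. Leaving out 1 library kept the median log2 fold change of the homeobox genes between −0.09 and −0.03. With a pseudocount of 1, 1 homeobox gene was higher and 0 were lower (222 and 143 of all loci). With no filter 1 was higher and 3 were lower (586 and 455 of all loci), with no mean-variance trend 1 was higher and 2 were lower, and with only loci above 0 in all 4 libraries, chosen after seeing the data, 1 was higher and 1 lower. Gm01g041700 was called lower in 12 of the 15 settings, and 13 homeobox genes were called in at least 1. Among 703 values of 51 named genes under the 14 alternatives, 20 had the opposite sign to the reported value, and none of them was a value of Gm01g041700.

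Replicate numbers are shared between the groups. The deviations of same-numbered libraries correlated at −0.079 over all tested loci and −0.179 over the homeobox genes. Such a correlation cannot show whether same-numbered libraries were handled together, and the main fit did not pair them. With a replicate block 0 homeobox genes were higher and 1 lower (369 and 293 of all loci), and Gm01g041700 kept its log2 fold change of −1.38 (limma adjusted p = 0.849). Values under about 1 FPKM limit the most: 70 of the 172 genes lie there.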
